A study of Caenorhabditis elegans with 8 samples.

Results

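Major sperm proteins (MSPs) are small cytoskeletal proteins that drive the crawling of the amoeboid sperm of nematodes, and they also leave the sperm as a signal that promotes oocyte maturation and contraction of the gonad sheath. The *C. elegans* hermaphrodite makes its sperm late in larval life, stores them, and then switches its germ line to oocytes. Transcripts of sperm genes are made in spermatocytes, and the *spe* genes are named for mutants with defective sperm, not for a transcript that is confined to sperm. The genes described here carry a name of the *msp*, *msd*, *ssp*, *ssq*, *nspd* or *spe* families, or are *gsp-3* or *gsp-4*, and had 10 or more counts in at least 4 of the 8 libraries. This rule kept 22 of the 104 genes with such a name, among 46928 genes in the table.

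The libraries were made from mRNA of whole wild-type worms (strain N2), grown on OP50 bacteria at 20°C. There were 4 libraries from populations given 50 μM Urolithin A (UA) in the medium and 4 from control populations grown alongside without it, each library from a pool of animals. The description deposited with the data places the treatment between the L4 stage and day 4 of adulthood, whereas the methods of the study give a harvest at day 1. The library totals lay between 41890058 and 43055719 counts. Of the values from 1 to 200 in a library, between 72% and 80.7% were even numbers, as values are when both mates of a read pair are counted, although the methods speak of fragments, so that the number of independent molecules may be smaller than the counts. In bulk RNA, fewer cells of a type and less RNA per cell cannot be told apart.

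The name of the group and its content differed. Of the 35 *msp* genes 1 met the count rule, *msp-31*, and of the *spe* genes 15 of 34 did. The remaining members were 3 of 13 *ssp* genes (sperm-specific family, class P), 2 of 12 *nspd* genes (nematode-specific peptides, group D) and 1 of 4 *ssq* genes (sperm-specific family, class Q). None of the 4 *msd* genes, which encode proteins with an MSP domain, and neither *gsp-3* nor *gsp-4*, the protein phosphatases of sperm meiosis and motility, met it. The 22 genes are therefore called sperm-named genes here, and not the MSP family. At the edge of the rule, *nspd-11*, *spe-51* and *spe-54* had 10 or more counts in exactly 4 libraries. Just outside it, *spe-36*, which encodes a secreted sperm protein of fertilization, reached 10 in 3 libraries, with 9, 13, 6 and 7 counts in UA and 10, 10, 6 and 7 in control.

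Of the 22 genes, 10 lie on chromosome I (45.5%, against 16.1% of all genes tested), 6 on IV, 3 on III, 2 on II and 1 on V. The *msp* genes in the table lie on 2 chromosomes, with 15 on chromosome II and 20 on chromosome IV. All 35 *msp* genes are listed as single exons and 28 of them are exactly 384 bases long. Genes of this family are known as near-copies of one another, and the sources used here do not state whether reads that map to several places were counted, so the value of a single *msp* gene is uncertain.

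The level of the sperm-named genes was read as counts per 1000000 counts of the library (CPM) per kilobase of exon, which allows genes of unequal length to be compared. Of the 22 genes, 5 lay above the median of all genes tested, 8.06 CPM per kilobase, and 17 below it. The highest was *spe-39*, whose product acts in vesicle traffic to lysosomes in many tissues, at 49.7 CPM per kilobase or the percentile 77.6 of all genes tested. It was followed by *spe-48* at 41.1, by *spe-44*, a transcription regulator of spermatocytes, at 15.6, and by *spe-5*, a subunit of the vacuolar proton pump, at 12.7. These 4 genes held 85% of all counts on the 22. The other *spe* genes lay between 0.131 CPM per kilobase in *spe-51*, a secreted sperm protein of fertilization, and 3.23 in *spe-6*, a casein kinase of the spermatocyte. Outside the *spe* genes, *ssp-37* was highest at 8.43, *ssp-10* followed at 6.08, *nspd-7* at 5.55, *ssq-1* at 3.42 and *msp-31* at 2.69. The levels of *spe-51*, *spe-9*, *spe-54* and *spe-47* were below the percentile 6 of all genes tested.

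**Figure D1:**
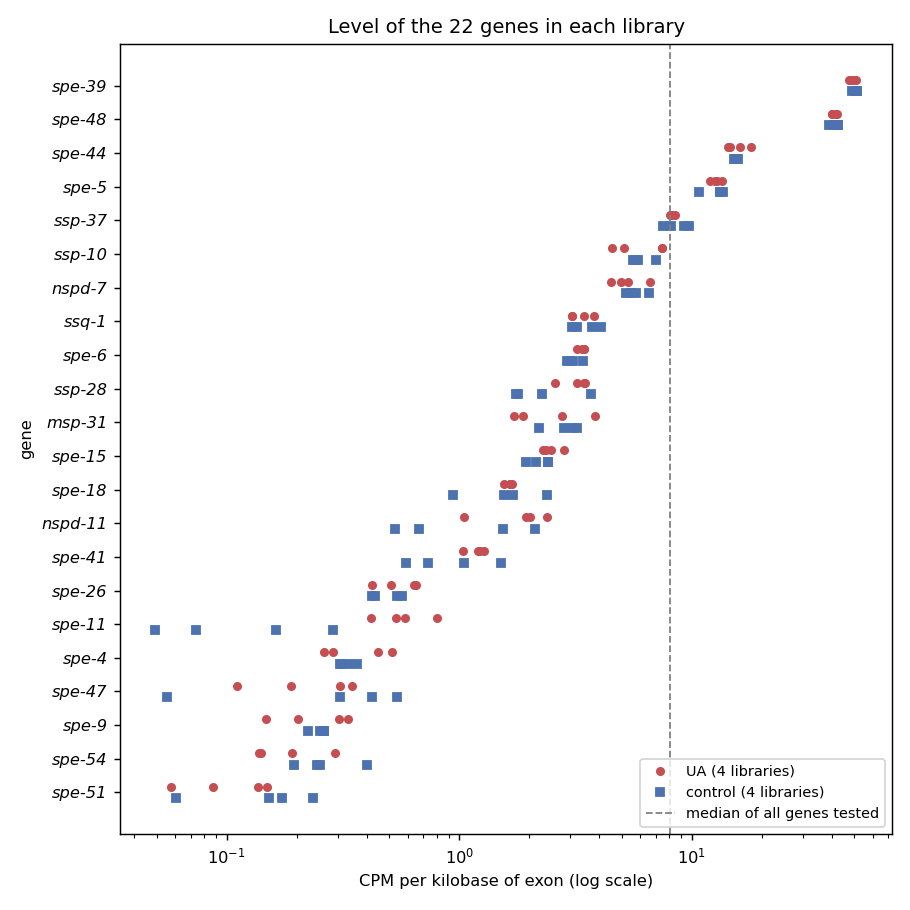
Level of each of the 22 sperm-named genes in CPM per kilobase of exon on a log axis, with 4 UA libraries (circles) above 4 control libraries (squares) in each row and the median of all genes tested as a dashed line. *spe-39* and *spe-48* stand highest, 17 of the 22 genes lie below the dashed line, and the UA and control points are apart without overlap only in *spe-11*.

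The comparison of UA with control asks which transcripts changed in treated animals. It was made with edgeR's quasi-likelihood test on all genes that passed its filter for low counts, which kept 20 of the 22 genes and left out *spe-51* and *spe-54*. Following the thresholds in the study's methods, a gene was called where its p was under 0.05 before adjustment and its fold change exceeded 1.2. One gene, *spe-11*, was called, as higher in UA, and no other of the 20 was called in either direction, where 5.67% of all 13720 genes tested were called (4.12% as higher and 1.55% as lower). The share among the sperm-named genes was thus near that of all genes. Its single call is of a gene that met the count rule only with its UA libraries. None of the 20 passed an adjusted p under 0.05 in edgeR's test, which 0.0948% of all genes did, and 1 had an unadjusted p under 0.05, which 7.25% of all genes had. DESeq2 called *spe-11* alone at the study's thresholds (5.63% of all genes). It gave no adjusted p for *spe-11*, *spe-47*, *spe-9* and *nspd-11*, and 0 of the other 16 passed an adjusted p under 0.05, which 1.39% of all genes with one did. With the replicate numbers as a block *spe-11* was again the single call, where 7.97% of all genes were called. The log2 fold changes of the 20 genes were positive in 11 and negative in 9, with a median of 0.011, beside a median of -0.0030 over all genes tested. Summed over the 22 genes, the CPM was 226.0 ± 3.74 in UA and 227.1 ± 5.05 in control (SD, n = 4 each). This sum mostly reflects *spe-39*, *spe-48*, *spe-44* and *spe-5*. The other 18 genes summed to 35.06, 35.0, 34.74 and 35.56 CPM in UA replicates 1 to 4. In control replicates 1 to 4 they summed to 29.99, 31.4, 35.51 and 34.72 CPM, so the conditions overlap.

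**Figure D2:**
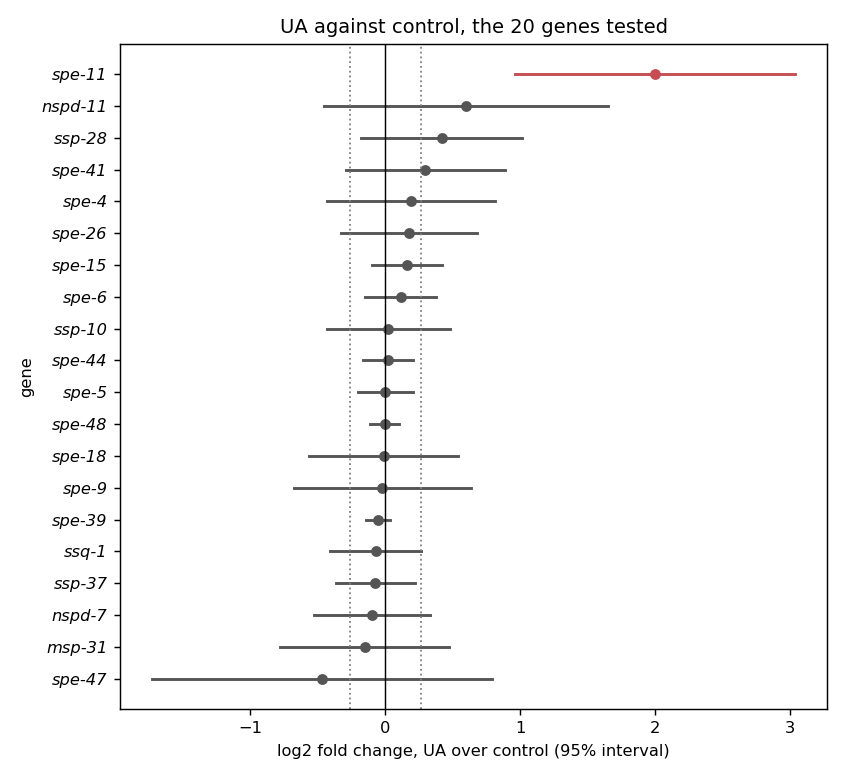
log2 fold change of UA over control for the 20 sperm-named genes tested, with the 95% interval from edgeR's fit as a line and a fold change of 1.2 in each direction as dotted lines. The interval of *spe-11* (red) lies above the right dotted line, and all others cross 0.

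*spe-11* encodes a factor that the sperm brings into the egg and that the embryo needs for egg activation and early development. It is on the reverse strand of chromosome I from 5330578 to 5332169 in WBcel235. Its counts were 25, 34, 17 and 22 in UA replicates 1 to 4, against 12, 7, 2 and 3 in control replicates 1 to 4. Every UA library lay above every control library, which held for 3.06% of all genes tested. In CPM, *spe-11* averaged 0.571 ± 0.158 in UA and 0.14 ± 0.105 in control (SD, n = 4 each). The log2 fold change was 2.001 with a standard error of 0.47 (unadjusted p = 0.00159, adjusted p = 0.239, edgeR's quasi-likelihood test), or 4.003-fold, with a 95% interval of 0.96 to 3.04 on the log2 scale. With each library left out in turn it ranged from 1.73 to 2.57, and the gene kept its call in all 8 of these fits. With the split of replicates 1 and 2 from 3 and 4 as a covariate, *spe-11* passed an adjusted p under 0.05 (adjusted p = 0.0247, edgeR's test), as did 1.6% of all genes, where 8.39% were called. The gene met the count rule through its 4 UA libraries and 1 control library. Its control libraries alone would not have met the rule, so its place among the 22 rests on its level in UA. The call, the interval and the lack of overlap are therefore not independent of how the gene was chosen.

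The upstream neighbor of *spe-11* differed in the same direction. F48C1.9 lies 79 bases away on the same strand, from 5332249 to 5332780, and shares no exon base with *spe-11*. Its counts were 639, 414, 168 and 111 in UA replicates 1 to 4, against 207, 312, 44 and 36 in control replicates 1 to 4. In both genes each UA library was above its control counterpart by replicate number. Replicates 1 and 2 were also above replicates 3 and 4 in both genes, in each condition. The log2 fold change of F48C1.9 was 1.15 with a standard error of 0.70 (unadjusted p = 0.132, edgeR's test), which did not pass. For every 100 counts on F48C1.9, *spe-11* had between 3.91 and 19.8 counts in UA and between 2.24 and 8.33 in control, which overlap. The part of F48C1.9 in the result for *spe-11* was not tested.

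**Figure D3:**
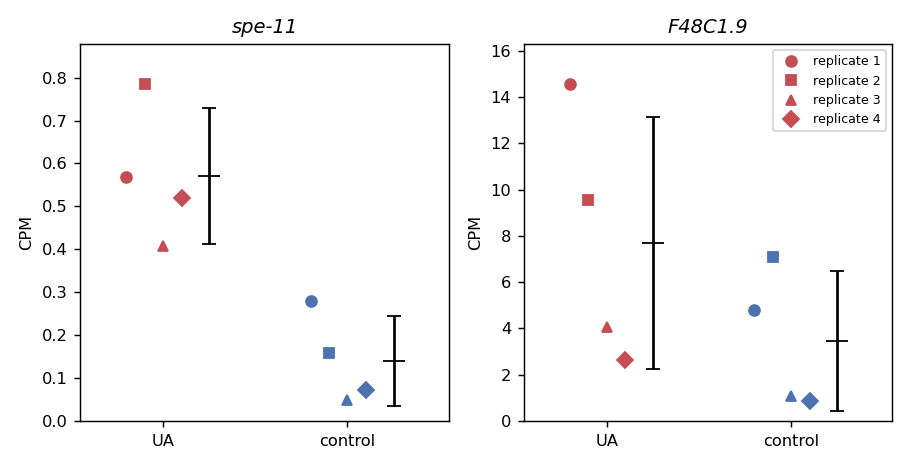
CPM of *spe-11* (left) and of its neighbor F48C1.9 (right) in UA and control libraries, one symbol per replicate number, with the mean and SD of the 4 libraries in black. The UA libraries of *spe-11* lie above all control libraries, whereas those of F48C1.9 overlap with control.

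Among the *spe* genes of the spermatocyte and of the fibrous body-membranous organelle complex, which packs the MSPs, 0 of 8 tested genes were called, with a median log2 fold change of 0.069. The most abundant, *spe-39*, had 89.8, 92.6, 96.2 and 89.96 CPM in UA, against 92.5, 96.0, 97.2 and 96.6 CPM in control. Its UA value was the lower in each of the 4 replicate numbers, but the groups overlap, and the log2 fold change of -0.053 had a 95% interval of -0.14 to 0.035. *spe-44* had 29.3, 23.7, 23.2 and 26.3 CPM in UA, against 25.0, 25.5, 24.7 and 25.8 CPM in control. UA libraries lay on both sides of the control libraries, whose values were close together. For *spe-44*, *spe-5*, *spe-39* and *spe-48* the whole 95% interval lay within a fold change of 1.2, so that a larger difference in either direction would be outside it. *spe-48* differed by -0.0054 on the log2 scale, with an interval of -0.11 to 0.10. *spe-6* averaged 4.27 ± 0.144 CPM in UA and 3.94 ± 0.271 CPM in control (SD, n = 4 each), and its UA value was the higher in 4 of 4 replicate numbers, without a call (unadjusted p = 0.349, edgeR's test). *spe-4*, a presenilin-like protein, *spe-18*, needed for fibrous body assembly, *spe-26*, a kelch-like protein, and *spe-15*, a myosin VI heavy chain, had log2 fold changes of 0.19, -0.012, 0.18 and 0.16, with 95% intervals that cross 0. *spe-10* and *spe-21* of the same list were below the rule.

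Of the 8 *spe* genes of sperm activation, the step at which a round spermatid becomes a crawling sperm, only *spe-47* met the rule and the other 7 stayed under 10 counts in every library. *spe-47*, which encodes a protein with an MSP domain, had 17, 6, 18 and 10 counts in UA, against 3, 17, 28 and 22 in control. The groups overlap, with control replicate 1 the lowest library of all. Its log2 fold change of -0.47 was the most negative of the 20 genes, with a 95% interval of -1.73 to 0.79.

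Of the 9 genes found from the list of fertilization and egg activation, 4 are members, *spe-11*, *spe-9*, *spe-41* and *spe-51*. *spe-9*, a transmembrane protein with EGF repeats that the sperm needs to fertilize the oocyte, had 18, 13, 28 and 26 counts in UA, against 22, 20, 22 and 22 in control. Its UA libraries lay below control in replicates 1 and 2 and above it in replicates 3 and 4, and the log2 fold change was -0.021, with a 95% interval of -0.68 to 0.64. *spe-51* had 4, 6, 9 and 10 counts in UA, against 16, 12, 4 and 10 in control, and *spe-54* had 6, 6, 12 and 8 in UA, against 17, 11, 10 and 8 in control. Both genes overlap between the conditions and were too low for the test. *spe-38*, *spe-42* and *spe-49* of the list had at most 6 counts in any library.

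*spe-41*, a calcium-permeable TRPC channel of sperm, was spread widely over the control libraries. Its CPM was 3.48, 3.30, 2.84 and 3.36 in UA replicates 1 to 4, against 1.604, 2.001, 2.87 and 4.11 in control replicates 1 to 4. The UA libraries were alike, and the spread lay in the control libraries, of which replicates 1 and 2 were below every UA library and replicate 4 was above them all. Replicates 1 and 2 of both conditions stand apart from replicates 3 and 4 on the first principal component of these libraries in earlier work on the data, and the labels name no such grouping. Over all libraries the log2 fold change of *spe-41* was 0.30 (unadjusted p = 0.290, edgeR's test). It was 0.92 among replicates 1 and 2 alone (unadjusted p = 0.00146, adjusted p = 0.0399, edgeR's test), where 11.8% of all genes tested were called, 7.05% as higher, and 3.98% passed an adjusted p under 0.05. It was -0.17 among replicates 3 and 4 alone (unadjusted p = 0.514), where 5.55% were called and *spe-11* was the single sperm-named gene. The test of the difference between these 2 effects gave an unadjusted p of 0.00779 for *spe-41* and 0.0442 for *spe-15* (edgeR's test of the interaction). None of the 20 genes passed this test at an adjusted p under 0.05, which 0.0802% of all genes did (adjusted p = 0.364 for *spe-41* and 0.565 for *spe-15*). At an unadjusted p under 0.05 these 2 of the 20 genes passed, against 8.55% of all genes, so the share was near that of all genes and a difference between the replicate numbers was not shown. *spe-15* had 9.61, 10.98, 8.87 and 9.18 CPM in UA, against 7.53, 8.32, 9.32 and 9.32 CPM in control, and so was higher in UA in replicates 1 and 2 only. Its log2 fold change was 0.39 among replicates 1 and 2 (unadjusted p = 0.0149) and -0.048 among replicates 3 and 4 (unadjusted p = 0.745).

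**Figure D4:**
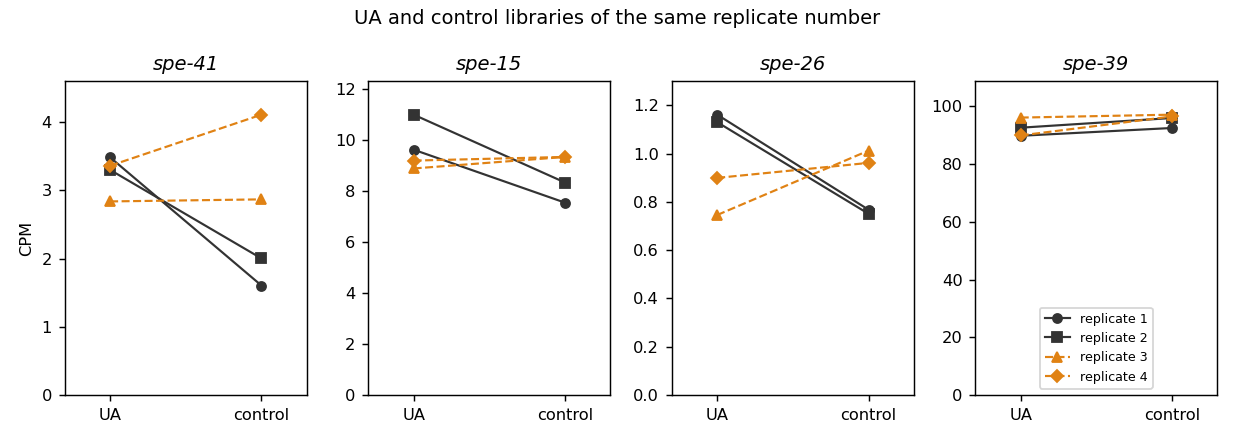
CPM of 4 *spe* genes in UA and control libraries joined by replicate number, with solid black lines for replicates 1 and 2 and dashed orange lines for replicates 3 and 4. For *spe-41*, *spe-15* and *spe-26* the lines of replicates 1 and 2 fall toward control and those of replicates 3 and 4 do not, and for *spe-39* all 4 lines are nearly level.

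In the sperm-specific families, no gene was called. *ssp-28* had 1.39, 1.04, 1.298 and 1.40 CPM in UA, against 1.49, 0.705, 0.916 and 0.721 CPM in control. The UA libraries were above 3 of the 4 control libraries, and control replicate 1 was the highest of all 8. The log2 fold change of 0.42 (unadjusted p = 0.150, edgeR's test) became 0.71 without that library (unadjusted p = 0.0123), and the gene was then called. *ssp-37* averaged 3.70 ± 0.083 CPM in UA and 3.90 ± 0.454 CPM in control, and *ssq-1* averaged 3.22 ± 0.343 CPM in UA and 3.38 ± 0.446 CPM in control (SD, n = 4 each). *ssp-10*, which lies next to *ssq-1* on chromosome IV, had 1.69, 1.499, 2.45 and 2.46 CPM in UA, against 1.93, 1.84, 2.31 and 1.87 CPM in control. For these 3 genes the conditions overlap and the 95% intervals lie within a fold change of 1.5, as they did for 11 of the 20 genes. *nspd-7* had a log2 fold change of -0.097 and *nspd-11*, which RefSeq lists as a pseudogene, one of 0.60 on 3 to 14 counts per library, and neither passed.

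*msp-31*, the 1 MSP gene that met the rule, had 29, 46, 30 and 62 counts in UA, against 53, 52, 35 and 45 in control. The conditions overlap, with the lowest and the highest library both in UA, and the log2 fold change was -0.15, with a 95% interval of -0.78 to 0.48. The gene lies on the reverse strand of chromosome II from 4916179 to 4916562, inside the span of *aagr-2* (4914494 to 4925248) on the same strand, with no shared exon base. *aagr-2* had between 6556 and 9115 counts in UA and between 6471 and 8504 in control. Per base of exon, *msp-31* had between 2.57% and 5.46% of the counts of *aagr-2* in UA and between 3.70% and 6.37% in control. The part of reads from *aagr-2* in the counts of *msp-31* was not tested. Of the 22 genes, 5 overlap the span of another gene that had counts, and *spe-26* is another that lies wholly inside such a gene, R10H10.3, on the opposite strand. Only *spe-5*, with 68 bases, and *spe-9*, with 8, share exon bases with another gene.

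The other 82 sperm-named genes were at or near 0. Of these, 23 had no counts in any library, which allows up to 3 counts in each, or 0.0697 to 0.0716 per 1000000 counts. This limit takes each count as independent, so it is too low where both mates of a pair were counted. It does not hold for near-copies if reads that map to several places were left out. Among the 34 *msp* genes below the rule, the summed counts were 14, 16, 8 and 190 in UA replicates 1 to 4, against 11, 15, 10 and 13 in control replicates 1 to 4. Thus the other 7 libraries held 8 to 16 counts and UA replicate 4 stood far above them, at 4.42 per 1000000 counts of its library (95% interval 3.82 to 5.1, exact Clopper-Pearson, for counting error only and too narrow where both mates of a pair were counted). In UA replicate 4, 22 of the 34 genes had counts, 9 of them 10 or more, and 21 had more than in any other library. The highest were *msp-19* and *msp-76*, with 18 counts each, where no *msp* gene below the rule had more than 4 counts in another library. Without UA replicate 4, the mean of the summed counts was 12.7 in UA, against 12.2 in control. With it, the UA mean was 57.

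The same library was highest in other families with sperm functions. *gsp-3* had 0, 0, 2 and 14 counts in UA replicates 1 to 4, against 4, 0, 0 and 2 in control. *gsp-4* had 4, 0, 8 and 10 counts in UA replicates 1 to 4, against 2, 0, 2 and 0 in control. The 3 *ssq* genes below the rule summed to 0, 2, 0 and 18 in UA, against 2, 4, 0 and 0 in control, and the 10 *ssp* genes to 2, 12, 5 and 21 in UA, against 5, 3, 0 and 0 in control. UA replicate 4 thus held the highest value in each of these sums, on small counts. The 19 *spe* genes below the rule did not share this: they summed to 47, 46, 36 and 47 in UA, against 44, 38, 37 and 22 in control. Without UA replicate 4 the calls among the 20 tested genes were as with it, *spe-11* alone.

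**Figure D5:**
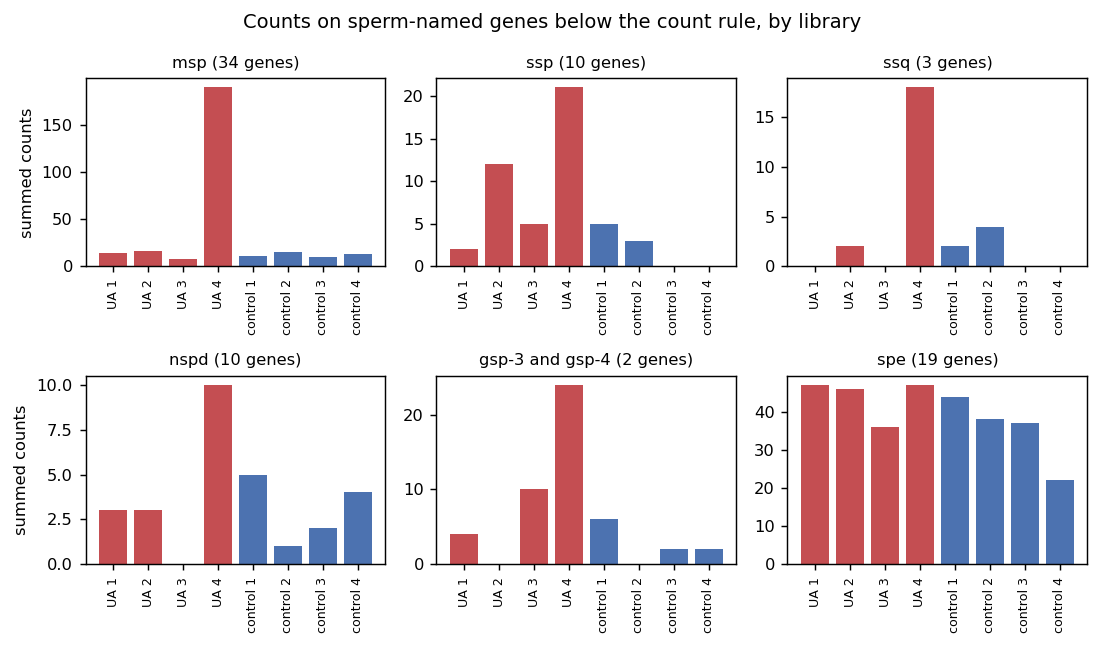
Summed counts per library of the sperm-named genes below the count rule, by family, with UA libraries (red) left of control libraries (blue) and a vertical axis of its own for each family. UA replicate 4 stands highest in *msp* (190 counts), *ssp* (21), *ssq* (18), *nspd* (10) and *gsp-3* with *gsp-4* (24), and is level with UA replicates 1 and 2 in *spe*.

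Males make sperm throughout adult life, and their marker genes were read beside these counts. *pkd-2*, *lov-1*, *cwp-1* and *cwp-3*, of male sensory neurons, had 0 to 2 counts in every library, and *cwp-2* had at most 4. Other genes of the same kind had more. *cwp-4* had 4, 20, 14 and 14 counts in UA replicates 1 to 4, against 9, 12, 2 and 17 in control. *cwp-5* had 0, 8, 9 and 10 counts in UA, against 2, 5, 0 and 11 in control. In all, 5 of the 10 listed genes stayed under 10 counts in every library. The 10 listed male genes summed to 4.05 to 5.001 CPM in UA and 3.58 to 7.91 CPM in control. UA replicate 4 was the lowest UA library, at 4.05. Most of each sum was *plg-1*, with 154, 130, 153 and 123 counts in UA, against 96, 110, 158 and 267 in control. The sums therefore mostly follow this gene and say little of the other listed male genes. *try-5* had 44, 40, 22 and 10 counts in UA, against 36, 30, 31 and 20 in control. Among the UA libraries, replicate 4 was lowest for *plg-1* and *try-5*, but not for *cwp-4* and *cwp-5*. Whether the pools held males was not tested. None of the 3 listed male genes that could be tested was called. Other sperm genes from a list outside the name rule were mixed in level. Of 17 found in the table, 9 stayed under 10 counts in every library, among them *peel-1*, a sperm-delivered toxin, and the sperm chromatin genes *spch-1*, *spch-2* and *spch-3*. Of these, *alg-4* (8 counts), *sss-1*, *spch-1* and *spch-3* (4 each) were highest in UA replicate 4. *spch-2* had 6 counts both there and in UA replicate 3, and *alg-3*, *comp-1*, *htas-1* and *peel-1* were not highest there. Of the 7 tested genes of this list, 0 were called. *fer-1*, a ferlin of sperm activation, had 57, 45, 62 and 74 counts in UA, against 55, 62, 54 and 58 in control. *fog-1*, a regulator of RNA that sets the sperm fate of germ cells, had a log2 fold change of 0.24 (unadjusted p = 0.0107, edgeR's test), under the fold threshold. *fog-3*, which acts in the same decision, had 34, 64, 92 and 116 counts in UA, against 12, 4, 52 and 48 in control, a log2 fold change of 1.38 (unadjusted p = 0.0561, edgeR's test) that did not pass.

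The listed genes of the response to MSP differed widely in depth. They ranged from 4 to 14 counts per library in *nmr-1*, an NMDA-type glutamate receptor subunit that was too low for the test. The highest, *oma-2*, an RNA-binding protein of the oocyte, had between 36265 and 44034. Of the list of MSP receptors and effectors, 12 of 13 genes were tested and 0 called, with a median log2 fold change of -0.013. Among them, *vab-1*, the Eph receptor that binds MSP, differed by -0.0037 on the log2 scale, and *unc-43*, the calcium/calmodulin-dependent kinase, by 0.19 (unadjusted p = 0.00635, edgeR's test), under the fold threshold. Of 12 oocyte and eggshell genes 1 was called, *perm-4*, an eggshell protein that was higher in UA by 0.31 on the log2 scale (unadjusted p = 0.00236, adjusted p = 0.272). The 12 genes summed to between 20540 and 21850 CPM in UA and between 20230 and 21730 CPM in control. Of 6 tested early embryo genes 0 were called, with summed CPM over the 10 listed of 10.1 to 16.1 in UA and 9.61 to 19.2 in control. Of 8 tested yolk and adult cuticle genes 1 was called, *col-19*, an adult collagen that was lower in UA (log2 fold change -0.54, unadjusted p = 0.0232). None of these lists held a gene at an adjusted p under 0.05. The calls in these lists stand beside 5.67% of all genes tested, so single calls are no finding about a list.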

How the data were processed

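After read filtering, the authors used HISAT (HISAT2 in the submitters' processing notes) for alignment to WBcel235 and featureCounts 1.6.2 for counting on RefSeq genes. The deposited counts are whole numbers without normalization, and the deposited table also gives the exon length of each gene. Strand and multi-mapping settings are not given in the sources used here. Symbols came from the RefSeq gene table, which matched 46925 of 46928 identifiers.

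Counts were fitted over the whole table with edgeR 4.0.16 in R 4.3.3 (filterByExpr, TMM, quasi-likelihood F test, condition as the term), which tested 13720 genes, with Benjamini-Hochberg adjustment. CPM used TMM-scaled library sizes. Alternatives were DESeq2 1.42.0, other scalings, no filter, each library left out, the replicates in separate fits, and a replicate block. Same-numbered libraries deviated together, with correlations of 0.191 to 0.353 in the 4 pairs, but only 2 of the 4 correlated best with their own number. Replicates 1 and 2 of both conditions also stand apart from 3 and 4, so these correlations do not settle whether the numbers pair the libraries. The replicate block treats them as pairs, and the main test does not. The steps were tested on simulated data. Other steps used Python 3.11.15, pandas 2.3.3, scipy 1.17.1 and matplotlib 3.10.9.

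The members and lists were chosen with earlier results of these data known. By rule, each family's most abundant, most raised and most lowered members are named, with the *spe* genes by role, *gsp-3*, *gsp-4*, and the 10 other genes most like the members. The lists cover *spe* roles, other sperm genes, MSP response, oocyte, male, embryo and adult genes. Other genes were named after their values were seen, such as F48C1.9, *aagr-2* and the list genes with values. For neighbors, genes with counts within 300 bases were taken. Sequences were not used here.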

Additional observations from a re-analysis of the deposited data

Results flagged for a closer look

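In each condition, the library farthest from the others was set against Dixon's 95% limit for 4 values, over 58 groups of 4 libraries (44 for the 22 genes and 14 for the sums of the families below the count rule). Chance gives about 1 in 20, and 5 groups passed. That rate is for continuous values, so it need not hold for the sums, some of which rest on few counts. Among the 22 genes, *spe-5* was low in control replicate 2, at 17.9 CPM (the other control libraries had between 21.97 and 22.7). Among the sums, UA replicate 4 was high for the *msp* genes with 190 counts and for the *ssq* genes with 18. It was also high for the *msd* genes with 4, where the other UA libraries each had 2, all on *msd-4*. UA replicate 3 was low for the *spe* genes, with 36 counts against 46 or 47 in the other UA libraries.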

How the results depend on the processing

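The count of genes called among those tested was 1 (*spe-11*) with DESeq2, RLE size factors, library totals alone, TMM without the sperm genes, no filter on low counts, the replicate split as a covariate, and replicates 3 and 4 alone. With the replicate block it was also 1, the log2 fold change of *spe-11* was 2.08, and no call changed. The count was 3 among replicates 1 and 2 alone (*spe-11*, *spe-15*, *spe-41*), where 11.8% of all genes tested were called, 7.05% as higher. Of the 3, *spe-41* also passed an adjusted p under 0.05, as did 3.98% of all genes. Over all 8 libraries with condition as the single term the count was 0 at an adjusted p under 0.05 in edgeR's test. It ranged from 1 to 2 with a library left out, as *ssp-28* was added without control replicate 1 and *spe-41* without control replicate 4 (log2 fold change 0.59). The adjusted p of *spe-11* in edgeR's test was 0.0247 with the replicate split as a covariate, where 1.6% of all genes passed, and lay between 0.0247 and 0.562 over the alternatives, while DESeq2 gave none. Of the 340 combinations of gene and alternative, called ones included, 39 uncalled ones had a changed sign. The summed CPM of the 22 genes in UA minus control was -1.04, and -2.61 to 1.005 with a library left out. Without UA replicate 4, chosen after seeing the data, the UA mean of the summed *msp* counts below the rule was 12.7. Depth limits the genes with few counts, where a 95% interval spans more than a 2-fold change.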

Other observations

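The sperm-named genes did not vary together across the 8 libraries. Over the 190 pairs of the 20 tested genes, the correlation of log2 CPM had a median of 0.025, a lowest value of -0.768 and a highest of 0.925, between *spe-9* and *ssp-10*. The points share libraries and the low counts of many of these genes. The genes outside the group whose log2 CPM followed the mean of the standardized values of the 20 genes most closely were C25D7.5 (r = 0.97), T08D2.2 (0.961), Y54E5A.2 (0.959), T19C3.4 (0.959), D1054.5 (0.957), C04F5.9 (0.952), *cnt-2* (0.942), F49B2.6 (0.939), *clh-4* (0.934) and Y53F4B.45 (0.932), over 8 libraries. They were picked as the highest of all genes tested at a mean of at least 1 CPM, so the size of r is no finding.

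The collagen *rol-6*, from the list of adult genes and too low for the test, had 2, 0, 48 and 28 counts in UA replicates 1 to 4, against 0, 2, 10 and 0 counts in control.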
